A study of Mus musculus with 116 samples.

Results

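The genes of Polycomb repressive complex 1 (PRC1) and its chromobox subunits were followed in sorted cells of the developing mouse neocortex that had kept or lost Eed, a core subunit of Polycomb repressive complex 2 (PRC2). The 9 genes, of 53379 in the count tables, were taken by name: the chromobox genes Cbx2, Cbx6, Cbx7 and Cbx8, the Polycomb group ring finger genes Bmi1 and Pcgf2, the ring finger ligases Ring1 and Rnf2, and the polyhomeotic gene Phc1. Their levels were read in libraries of green cells with at least 1000000 uniquely aligned reads that made up at least 60% of all reads, which kept 55 of 68 green libraries. All 9 genes were measured and passed the count filter of every test.

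Cells were labeled by Mosaic Analysis with Double Markers (MADM), in which Cre recombination between cassettes on chromosome 7 marks single dividing cells and their progeny green, red or yellow. Cre was expressed from Emx1, a gene of dorsal telencephalic progenitors. In control-MADM every labeled cell is Eed+/+. In Eed-MADM the green cells are Eed-/-, the yellow cells Eed+/- and the red cells Eed+/+, and they sit sparsely in a cortex that is otherwise mostly heterozygous. In cKO-Eed-MADM cells of all colors are Eed-/-, and so is the surrounding Emx1 lineage. Green cells of all 3 paradigms carry both copies of the distal chromosome 7 from the father. Red cells carry both maternal copies instead. The labels give the strain as CD1 and the study's methods a mixture of CD1 and C57BL/6. Cortices of 2 to 3 animals were pooled for each library, at 3 embryonic ages (E12.5, then E13.5 and E16.5) or on the day of birth (P0). Used green libraries of control-MADM numbered 5 for E12.5, 2 for E13.5, 3 for E16.5 and 5 for P0. Those of Eed-MADM numbered 8, 2, 5 and 9 in the same order, and cKO-Eed-MADM had 4 per age. Cells of E12.5 were collected in another buffer than later ones, so age and collection cannot be told apart there and no test sets E12.5 against a later age.

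PRC1 is built around a ring finger ligase, RING1 or RNF2, that places ubiquitin on histone H2A and needs a partner of the PCGF family. Canonical PRC1, with BMI1 or PCGF2, also holds a chromobox protein that binds the H3K27me3 mark laid down by PRC2, and a polyhomeotic protein that polymerizes and compacts chromatin. The chromobox proteins replace each other during development, and BMI1 is best known in the brain for keeping neural stem cells dividing by repressing the Cdkn2a locus. Several genes encoding PRC1 subunits are themselves bound by Polycomb complexes in many cell types.

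Among the 9 genes, 4 are neighbors of another chromobox gene in the genome (GENCODE on GRCm38). Cbx2 (chromosome 11, 119022962 to 119031270, plus strand) and Cbx8 (chromosome 11, 119036305 to 119040969, minus strand) end towards each other with 5034 bases between them, and Cbx6 and Cbx7 lie on the minus strand of chromosome 15 with 81118 bases between them. The others are Rnf2 on chromosome 1, Bmi1 on chromosome 2 (18677018 to 18686629), Phc1 on chromosome 6, Pcgf2 on chromosome 11 (97688823 to 97700497) and Ring1 on chromosome 17. CpG-rich promoters are the kind on which Polycomb complexes gather, and binding to the 9 genes was not tested. The stretches in front of Bmi1 and Cbx8 are printed below because these 2 genes were called higher in cKO-Eed-MADM than in control-MADM at E16.5. They are the bases that precede the RefSeq start (GRCm38.p6) and lie before the GENCODE gene, at chr2:18676768-18677017 on the plus strand and chr11:119040970-119041163 on the minus strand, written 5′ to 3′ with each CG pair in capitals.
Bmi1: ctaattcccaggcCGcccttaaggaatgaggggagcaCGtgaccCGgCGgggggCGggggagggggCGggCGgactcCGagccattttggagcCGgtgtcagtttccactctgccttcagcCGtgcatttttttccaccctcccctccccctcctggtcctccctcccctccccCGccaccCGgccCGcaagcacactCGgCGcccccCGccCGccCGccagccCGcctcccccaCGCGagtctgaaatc
Cbx8: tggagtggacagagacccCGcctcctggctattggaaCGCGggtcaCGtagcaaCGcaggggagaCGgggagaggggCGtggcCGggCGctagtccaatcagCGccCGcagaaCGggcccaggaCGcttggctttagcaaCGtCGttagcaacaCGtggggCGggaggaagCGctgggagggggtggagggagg
The 250 bases before the RefSeq start held 21 CG pairs at Bmi1 and 22 at Cbx8, and a median of 6 over 32851 such windows of the genome. As many pairs as at Bmi1 occur in 16.3% of windows, and as many as at Cbx8 in 14.8%. Windows were found for 8 of the 9 genes (none for Cbx2). They ranged from 5 pairs at Pcgf2 and 8 at Phc1 to 30 at Ring1. Cbx6 and Rnf2 had 20 pairs each and Cbx7 had 23. However, the windows of Cbx6, Cbx7, Pcgf2 and Phc1 lie inside the longer GENCODE gene. On either strand, the Sp1 motif GGGCGG was in 7 of the 8 windows (32.7% of all windows), CCAAT in 2 (33.8%) and TATAAA in 0 (12.4%). GGGCGG holds a CG pair and so overlaps the capitals above.

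Reads counted on genes ranged from 865832 to 2359317 at E12.5 and from 2784557 to 7249098 at later ages. The median correlation of a library with the others of its group (log2 CPM across genes) was 0.734 to 0.865 at E12.5 and 0.887 to 0.960 later, and at E12.5 the summed red blood cell markers ran from 0.789 to 92000 CPM (reads per 1000000 reads on genes, scaled by TMM over all libraries used). Beyond the pooling, nothing says which libraries came from separate litters, so p-values measure the spread between these libraries, part of which may be technical. Bulk RNA cannot tell fewer cells of a type from less RNA per cell. Eed itself, of which only some exons are deleted, had group means in control-MADM of 101, 64.5, 41.1 and 29.4 CPM at the 4 ages in order, and of 39.6, 21.1, 18.8 and 11.6 CPM in cKO-Eed-MADM. Its difference passed the test (edgeR's quasi-likelihood test, adjusted p under 0.05 over all genes tested) at E16.5 (log2 fold change -1.10, adjusted p = 0.0314) and P0 (-1.32, adjusted p = 0.000378), and not at E12.5 (-1.34, adjusted p = 0.282) or E13.5 (-1.64, adjusted p = 0.0933). In Eed-MADM green cells it passed at P0 (-0.93, adjusted p = 0.0132), and its earlier values were -0.81 (E12.5, adjusted p = 1), -0.69 (E13.5, adjusted p = 0.886) and -1.22 (E16.5, adjusted p = 0.0889). The E12.5 green libraries labelled Eed-MADM replicate 1 (78.0 CPM of Eed) and replicate 7 (84.6 CPM) lay inside the control-MADM range of 75.2 to 152 CPM. At E13.5 both Eed-MADM libraries, replicate 2 (52.7 CPM) and replicate 6 (28.4 CPM), lay above cKO-Eed-MADM (15.7 to 25.4 CPM). Both were under control-MADM (59.2 and 69.9 CPM). The study also set libraries aside for reads in the deleted stretch of Eed, which counts per gene do not show, so libraries with incomplete recombination may remain among those used here.

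In control-MADM cells Cbx2 fell with age and Cbx7 rose, and no other of the 9 genes was called between ages. Cbx2 was the most abundant of the 9 at E13.5 and stood below Phc1, Pcgf2, Rnf2, Ring1, Cbx8 and Bmi1 at P0. The libraries at E13.5 had 220 and 156 CPM of Cbx2. At E16.5 they had 63.2, 83.9 and 73.1 CPM. At P0 the 5 libraries ran from 18.7 through a median of 37.3 to 68.3 CPM. Cbx2 fell by 1.37 on the log2 scale from E13.5 to E16.5 (SE 0.38, adjusted p = 0.0305) and by 2.28 from E13.5 to P0 (SE 0.33, adjusted p = 0.000356), a 4.84-fold lower level. From E16.5 to P0 its difference was -0.91 (SE 0.31, adjusted p = 0.0740). The E13.5 to P0 fall passed the test without any 1 of the 7 libraries, and that to E16.5 was lost without any 1 of 4 of the 5 libraries.

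Cbx7, the chromobox gene with the lowest counts, had 0 and 8 reads in the E13.5 control-MADM libraries (0 and 1.24 CPM), 3.07 to 4.38 CPM at E16.5 and 1.96 to 16.9 CPM at P0. It rose from E13.5 to P0 (log2 fold change 3.63, SE 1.14, adjusted p = 0.0340), a value that rests on 0 and 8 reads at E13.5. The rise was not called without E13.5 replicate 1, the library with 0 reads, or without P0 replicate 4 or P0 replicate 5. Counted by contrast of control-MADM ages, 1 of 9 was called from E13.5 to E16.5 (12.8% of all genes tested were called), 2 of 9 from E13.5 to P0 (22.9%) and 0 of 9 from E16.5 to P0 (11.0%). For that last contrast 1 of 9, Cbx2, had an unadjusted p under 0.05, and DESeq2 called 1, also Cbx2. Marker genes moved between these ages too: among 8 radial glia genes 5 fell and 1 rose from E13.5 to E16.5 and 5 rose from E16.5 to P0, and all 5 interneuron genes rose from E16.5 to P0. Their part in the age differences was not tested.

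**Figure D1:**
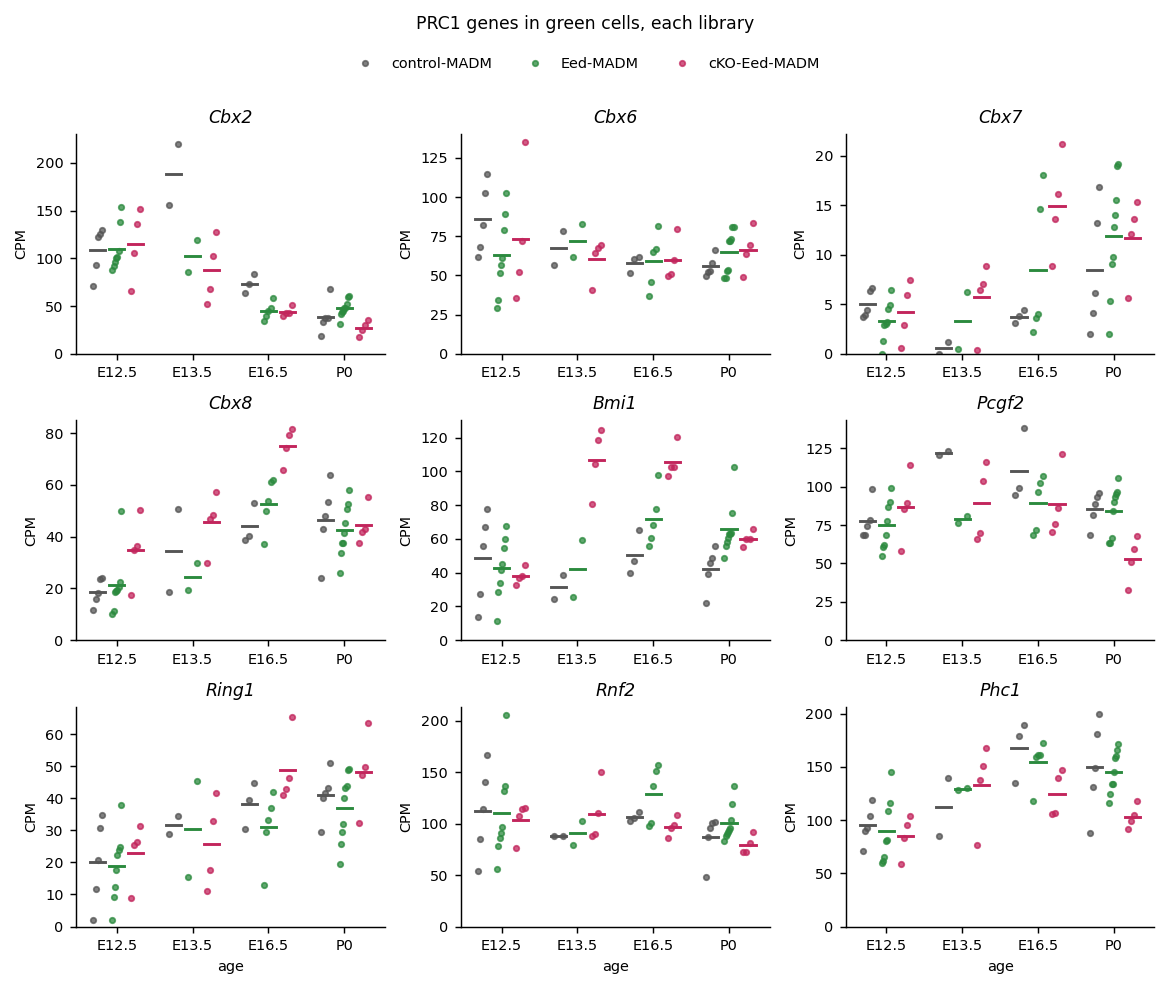
CPM (reads per 1000000 reads on genes, linear axis) of each of the 9 PRC1 genes in each used green library, by age and paradigm, with a line at the group mean. Cbx2 of control-MADM lies at 156 and 220 CPM at E13.5 and between 18.7 and 68.3 CPM at P0, and the cKO-Eed-MADM points of Bmi1 lie above those of control-MADM at E13.5 and E16.5.

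Per kilobase of exon, which allows levels of different genes to be compared, control-MADM cells at E13.5 held 44.1 ± 10.7 CPM per kb of Cbx2 (SD, n = 2), followed by Pcgf2 (34.6), Rnf2 (21.3) and Phc1 (21.2). At E16.5 the order was Phc1 (31.7 ± 5.46, n = 3), Pcgf2 (31.3), Rnf2 (25.8) and Cbx2 (17.2), and at P0 Phc1 (28.3 ± 8.24, n = 5), Pcgf2 (24.3), Rnf2 (21.02) and Ring1 (12.7). Neighbors in these orders overlapped between libraries, except Cbx2 over Pcgf2, Pcgf2 over Rnf2 and Phc1 over Ring1 at E13.5, and Rnf2 over Cbx2 at E16.5, which did not overlap. At E12.5 the leading 4 were Rnf2 (27.2), Cbx2 (25.4), Pcgf2 (22.0) and Phc1 (18.0), each overlapping the next. Cbx7 was last at every age, with 0.772, 0.0958, 0.581 and 1.30 CPM per kb from E12.5 to P0.

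Within the sum per kb of the chromobox genes Cbx2, Cbx6, Cbx7 and Cbx8, Cbx2 of control-MADM made up 64.1% ± 7.29 (SD, n = 5) for E12.5, 73.7% ± 0.973 (n = 2) for E13.5, 48.8% ± 4.50 (n = 3) for E16.5 and 31.1% ± 7.44 (n = 5) for P0. Cbx8 had 13.03%, 14.9%, 34.0% and 44.3% in order of age. In cKO-Eed-MADM the share of Cbx2 was 51.0% ± 7.48 for E13.5, 26.6% ± 3.56 for E16.5 and 23.8% ± 5.74 for P0 (SD, n = 4 each). No cKO-Eed-MADM library overlapped control-MADM in this share at E13.5 (41.9% to 59.1% against 73.0% to 74.4%) or at E16.5 (23.4% to 30.6% against 45.3% to 53.9%). Such shares are descriptions with no test, since they are bound to sum to the whole.

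**Figure D2:**
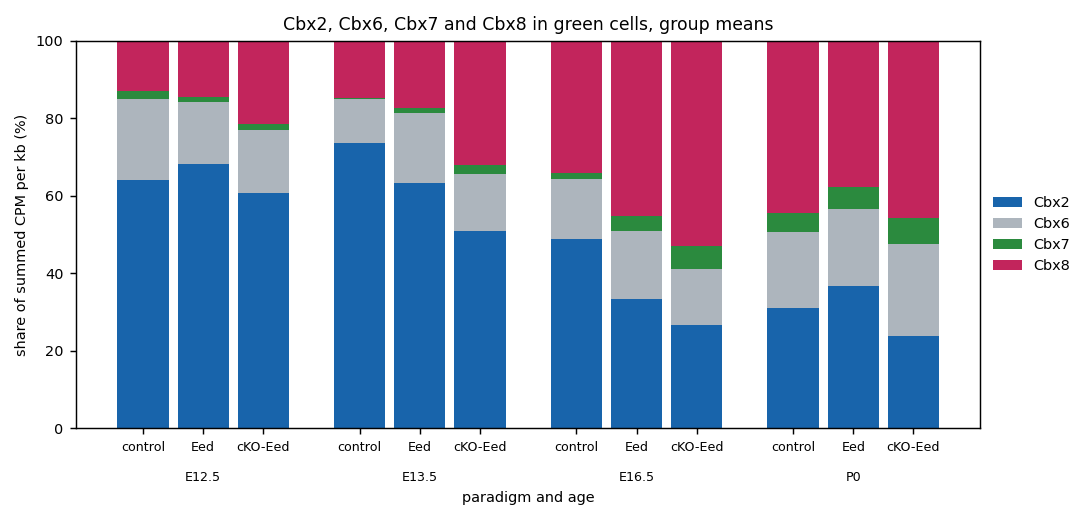
Stacked bars of the mean share (%) of Cbx2, Cbx6, Cbx7 and Cbx8 in their summed CPM per kb of exon, for green cells of each age and paradigm. Cbx2 makes up 73.7% in control-MADM at E13.5 and 31.1% at P0, and 26.6% in cKO-Eed-MADM at E16.5 against 48.8% in control-MADM.

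Of the 9 genes, Bmi1, Cbx8, Cbx2, Pcgf2 and Phc1 were called in at least 1 contrast between the paradigms in green cells. In green cells, 2 genes had calls that held under every alternative setting. These were a higher level of Bmi1 at E16.5 and a lower level of Pcgf2 at P0, both in cKO-Eed-MADM. In cKO-Eed-MADM against control-MADM at E16.5, Bmi1 and Cbx8 were called higher and Cbx2 lower, 3 of 9, where 8.58% of all genes tested were called (6.16% higher and 2.42% lower); the median difference of the 9 was 0.07 and that of all genes 0. At P0, Pcgf2 and Phc1 were called lower, 2 of 9, beside 24.2% of all genes (14.2% higher and 10.0% lower), with medians of -0.05 and -0.01. At E13.5 none of the 9 was called in this contrast, beside 0.0372% of all genes; 2 had an unadjusted p under 0.05 and DESeq2 called 1. At E12.5 none was called and none had an unadjusted p under 0.05, in either mutant paradigm or between them, beside 0% of 18100 genes, and DESeq2 called 0.

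Green cells labelled Eed-MADM had none of the 9 called against control-MADM at any age, beside 0% of all genes for E13.5, 0.255% for E16.5 and 1.75% for P0. Unadjusted p-values were under 0.05 for 1, 2 and 1 of the 9, and DESeq2 called 0, 0 and 1. Without the E12.5 libraries whose level of Eed lay in the control-MADM range, 0 of the 9 were called at E12.5 as well. The full E12.5 fit called none of the genes tested, so this count cannot show whether those libraries matter. Leaving out an E13.5 Eed-MADM library keeps 1 in that group, so no count is given there. Set directly against Eed-MADM, cKO-Eed-MADM had Cbx2, Pcgf2 and Phc1 called lower at P0, 3 of 9 beside 19.5% of all genes (11.2% higher and 8.26% lower). None was called at E13.5 (0.0223% of all genes) or E16.5 (7.04%), where 1 and 4 of the 9 had an unadjusted p under 0.05 and DESeq2 called 0 and 2. The 3 contrasts of an age share libraries, so their values are not independent of each other.

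**Figure D3:**
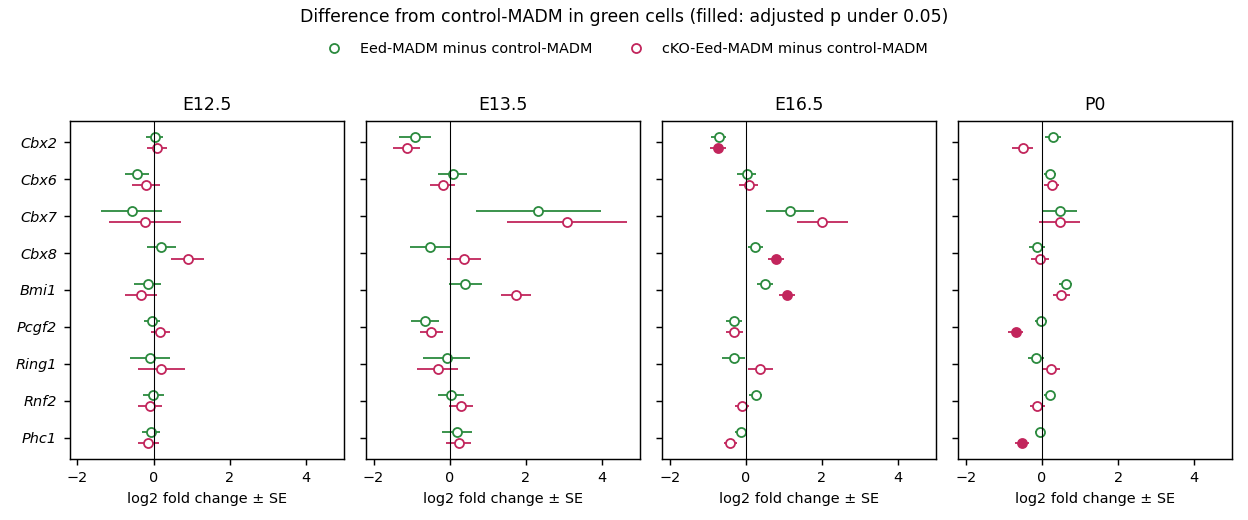
Log2 fold change (± SE of the edgeR fit) of each of the 9 genes in green cells against control-MADM at each age, green for Eed-MADM and red for cKO-Eed-MADM, with filled points for an adjusted p under 0.05. The filled points are Cbx2, Cbx8 and Bmi1 at E16.5 and Pcgf2 and Phc1 at P0, all of cKO-Eed-MADM.

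Bmi1 encodes a PCGF subunit of canonical PRC1. At E16.5 control-MADM libraries had 46.9, 39.6 and 65.4 CPM, Eed-MADM libraries 56.1, 68.3, 77.5, 98.0 and 60.3 CPM, and cKO-Eed-MADM libraries 103, 97.2, 102 and 120 CPM. Every cKO-Eed-MADM library was above every control-MADM library, and Eed-MADM overlapped both. Bmi1 was 2.12-fold higher in cKO-Eed-MADM than in control-MADM (log2 fold change 1.08, SE 0.22, adjusted p = 0.00283), and this call held without any 1 of the 7 libraries of these groups. Against Eed-MADM the difference was 0.58 (SE 0.18, adjusted p = 0.0634), and that of Eed-MADM from control-MADM 0.50 (SE 0.21, adjusted p = 0.394).

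At E13.5 Bmi1 had 24.3 and 38.9 CPM in control-MADM, 25.4 and 59.3 CPM in Eed-MADM, and 80.9, 118.5, 104 and 125 CPM in cKO-Eed-MADM. All 4 cKO-Eed-MADM libraries lay above the 4 others. The difference from control-MADM was 1.74 (SE 0.40, adjusted p = 0.105), which did not pass the test with edgeR and did with DESeq2 (1.73, adjusted p = 0.00201) and with no filter on low counts (adjusted p = 0.00349). At P0 the ranges were 21.8 to 55.7 CPM in control-MADM, 48.4 to 103 CPM in Eed-MADM and 55.4 to 65.9 CPM in cKO-Eed-MADM. Here the differences from control-MADM were 0.62 (SE 0.18, adjusted p = 0.0861; DESeq2 adjusted p = 0.0343) and 0.51 (SE 0.22, adjusted p = 0.0897). At E12.5 the 3 groups overlapped, with means of 48.5 CPM (control-MADM), 43.0 CPM (Eed-MADM) and 38.1 CPM (cKO-Eed-MADM).

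Pcgf2, also called Mel18, is the alternative PCGF subunit of the same complex. At P0 control-MADM had 88.7, 95.8, 93.5, 68.8 and 81.3 CPM, Eed-MADM ran from 63.3 through a median of 89.9 to 106 CPM, and cKO-Eed-MADM had 59.4, 32.9, 51.2 and 68.1 CPM. The highest cKO-Eed-MADM library lay just under the lowest control-MADM library. Pcgf2 was 1.61-fold lower in cKO-Eed-MADM than in control-MADM (log2 fold change -0.69, SE 0.19, adjusted p = 0.00898) and 1.58-fold lower than in Eed-MADM (-0.66, SE 0.17, adjusted p = 0.00760). The first call held without any 1 of the 9 libraries compared, and the second without any 1 of the 4 cKO-Eed-MADM libraries. At E13.5 and E16.5 its differences in cKO-Eed-MADM were -0.48 (SE 0.31, adjusted p = 0.664) and -0.30 (SE 0.22, adjusted p = 0.502).

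Since BMI1 and PCGF2 take the same place in the complex, their ratio per kb was read within each library, as a description. In control-MADM green cells the median log2 ratio of Bmi1 to Pcgf2 was -0.99, -2.16, -1.25 and -1.20 in order of age, so that Pcgf2 was the more abundant of the pair. In cKO-Eed-MADM it was -1.36, 0.21, 0.28 and -0.08. The green libraries of both groups did not overlap from E13.5 (-2.52 to -1.80 against -0.70 to 0.74) through E16.5 (-1.43 to -1.25 against -0.42 to 0.30) to P0 (-1.83 to -0.84 against -0.27 to 0.69). The medians of Eed-MADM green cells stood between them from E13.5 on, at -1.19, -0.17 and -0.56. Eed-MADM green libraries ran from -1.85 to -0.54 (n = 2), -1.11 to -0.06 (n = 5) and -0.92 to 0.11 (n = 9). These ranges overlapped both groups at E13.5 and P0, and cKO-Eed-MADM at E16.5. Other colors did not always follow: the single yellow control-MADM library at E16.5 had -0.07, inside the green cKO-Eed-MADM range, and the red cKO-Eed-MADM libraries at P0 had -4.44 and -0.41, on either side of red control-MADM (-1.64 and -1.43). The red library at -4.44, replicate 1, had 13133 genes detected, against 18385 in replicate 2.

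**Figure D4:**
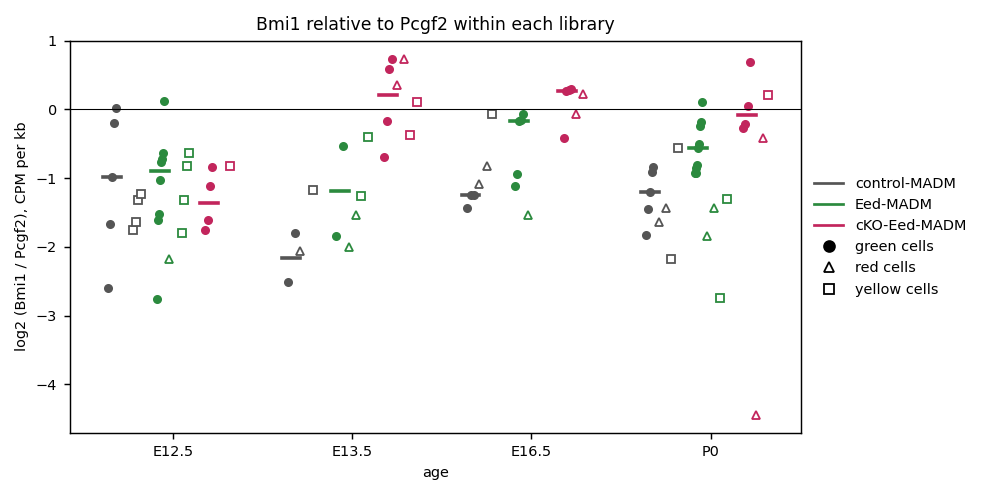
Log2 ratio of Bmi1 to Pcgf2 (CPM per kb of exon) in each library by age, with the color of the cells as the marker and the median of green libraries as a line. Green cKO-Eed-MADM libraries lie between -0.42 and 0.30 at E16.5, above all 3 control-MADM green libraries.

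Cbx8, a chromobox subunit that is low in embryonic stem cells and rises in differentiating ones, had 40.4, 38.8 and 53.1 CPM in control-MADM at E16.5. Eed-MADM had 61.8, 37.1, 61.1, 53.8 and 49.8 CPM, and cKO-Eed-MADM 74.4, 81.5, 79.4 and 65.7 CPM. All cKO-Eed-MADM libraries were above all the others. Cbx8 was 1.73-fold higher than in control-MADM (log2 fold change 0.79, SE 0.21, adjusted p = 0.0242), a call that was lost without control-MADM replicate 1 or 2 or cKO-Eed-MADM replicate 2 or 3 (adjusted p up to 0.113). Against Eed-MADM it was 0.54 (SE 0.18, adjusted p = 0.0845; called by DESeq2). At E13.5 Cbx8 had 50.8 and 18.5 CPM in control-MADM and 46.8, 57.4, 30.0 and 48.4 CPM in cKO-Eed-MADM, which overlapped, with a difference of 0.37 (SE 0.45, adjusted p = 0.865). At P0 the groups overlapped, and the difference of cKO-Eed-MADM from control-MADM was -0.05 (SE 0.24, adjusted p = 0.898).

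Its neighbor Cbx2 encodes a chromobox protein that itself compacts chromatin. At E16.5 the control-MADM libraries had 63.2 to 83.9 CPM, as given above, Eed-MADM had 48.2, 34.0, 58.2, 45.3 and 39.8 CPM, and cKO-Eed-MADM 51.0, 39.1, 42.3 and 42.5 CPM. Neither mutant paradigm overlapped control-MADM. The difference passed the test in cKO-Eed-MADM (log2 fold change -0.73, SE 0.22, adjusted p = 0.0403, 1.66-fold lower) and not in Eed-MADM (-0.71, SE 0.20, adjusted p = 0.170), where the number of genes called overall was smaller. The call was lost without any 1 of 6 of the 7 libraries (all but cKO-Eed-MADM replicate 1; adjusted p up to 0.204) and with no filter on low counts (adjusted p = 0.0529). Between the mutant paradigms the difference was -0.02 (SE 0.19, adjusted p = 0.979).

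At P0, Cbx2 had 35.9, 17.3, 25.03 and 30.2 CPM in cKO-Eed-MADM and ran from 31.6 through a median of 47.6 to 60.8 CPM in Eed-MADM. Only the highest cKO-Eed-MADM library reached into the range of Eed-MADM. Cbx2 was 1.74-fold lower in cKO-Eed-MADM than in Eed-MADM (-0.80, SE 0.25, adjusted p = 0.0236), which was lost without cKO-Eed-MADM replicate 2, 3 or 4 (adjusted p up to 0.0795). Against control-MADM it was -0.51 (SE 0.27, adjusted p = 0.174), and -0.68 (adjusted p = 0.0454) without control-MADM replicate 5. At E13.5 the value in cKO-Eed-MADM was -1.13 (SE 0.35, adjusted p = 0.227), with 102, 67.6, 52.5 and 128 CPM, all under both control-MADM libraries.

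Cbx7, which in many adult tissues is the main chromobox protein, had 13.6, 21.2, 16.2 and 8.86 CPM in cKO-Eed-MADM at E16.5 against 4.38, 3.85 and 3.07 CPM in control-MADM. These did not overlap. Its log2 fold change was 2.00 (SE 0.67) with an adjusted p of 0.0755 in edgeR, and it was called by DESeq2 (adjusted p = 0.0228), with no filter on low counts (0.0272) and with only these paradigms in the fit (0.0169). Eed-MADM libraries were spread from 2.21 to 18.1 CPM. Cbx6, a chromobox gene known for neuronal expression, had differences from -0.21 to 0.25 in cKO-Eed-MADM over the 4 ages, none called, and control-MADM means of 86.0, 67.6, 57.9 and 55.9 CPM. Of its exon bases, 5.31% are shared with Npcd on the same strand, and for Cbx7 1.54% with Apobec3 and for Rnf2 3.83% with Trmt1l on the opposite strand, so some reads there cannot be told apart.

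The ring finger ligases, without which PRC1 has no activity, were not called in any contrast. Rnf2, the more abundant of the pair, had control-MADM means of 112, 87.9, 107 and 86.8 CPM and cKO-Eed-MADM means of 103, 109, 97.2 and 79.6 CPM. Its differences from control-MADM in cKO-Eed-MADM were -0.10 (SE 0.32), 0.29 (SE 0.31), -0.11 (SE 0.18) and -0.12 (SE 0.19) in order of age. Ring1 had 20.1, 31.6, 38.3 and 41.1 CPM in control-MADM and 23.0, 25.8, 49.0 and 48.2 CPM in cKO-Eed-MADM, with differences of 0.20 (SE 0.62), -0.32 (SE 0.54), 0.38 (SE 0.32) and 0.23 (SE 0.24). Among these differences of cKO-Eed-MADM from control-MADM, the lowest adjusted p was that of Ring1 at P0 (0.5261). As a description, the log2 ratio of Rnf2 to Ring1 per kb at E16.5 was 0.38 to 0.85 in cKO-Eed-MADM green cells. It was 0.91 to 3.06 in Eed-MADM and 0.89 to 1.52 in control-MADM, and neither overlapped cKO-Eed-MADM. At the other ages cKO-Eed-MADM overlapped both groups.

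Phc1 encodes a polyhomeotic subunit whose sterile alpha motif domain polymerizes. At P0 it had 200, 149, 181, 88.4 and 131 CPM in control-MADM, 116 to 172 CPM with a median of 145 in Eed-MADM, and 105, 98.9, 118 and 91.8 CPM in cKO-Eed-MADM. The cKO-Eed-MADM libraries lay under 4 of the 5 control-MADM libraries, and only the highest of them reached above the lowest of Eed-MADM. Phc1 was 1.44-fold lower than in control-MADM (log2 fold change -0.53, SE 0.18, adjusted p = 0.0311) and 1.39-fold lower than in Eed-MADM (-0.48, SE 0.16, adjusted p = 0.0368). The first call was lost without control-MADM replicate 1 or 4 or cKO-Eed-MADM replicate 1 or 4 (adjusted p up to 0.103), and the second without cKO-Eed-MADM replicate 1, 2 or 4 (adjusted p up to 0.140) and with DESeq2's size factors in edgeR (adjusted p = 0.0513). At E16.5 the difference was -0.41 (SE 0.17, adjusted p = 0.168).

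Whether the effect of Eed loss differed between ages was tested directly. None of the 9 genes was called for a change of the cKO-Eed-MADM effect from E13.5 to E16.5 (4.30% of all genes tested) or from E16.5 to P0 (1.17%), or of the Eed-MADM effect from E16.5 to P0 (0.0215%). Unadjusted p-values were under 0.05 for 0, 1 and 1 of the 9, and DESeq2 called 0 in each. The gene behind the second was Cbx8 (-0.83, SE 0.39, adjusted p = 0.380) and behind the third Cbx2 (0.99, SE 0.34, adjusted p = 0.314). For Bmi1 the effect moved by -0.66 (SE 0.40, adjusted p = 0.430) and then by -0.56 (SE 0.35, adjusted p = 0.574), so the different calls of the ages are not shown to be different effects.

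Red and yellow libraries, which the choice of libraries left aside, gave a second reading of cKO-Eed-MADM against control-MADM, and whether they came from the same pooled cortices is not stated. At E16.5 red cells had 113 and 127 CPM of Bmi1 in cKO-Eed-MADM and 50.3 and 66.3 CPM in control-MADM. Bmi1 was called, 1 of 9 beside 8.11% of all genes (log2 fold change 1.05, SE 0.20, adjusted p = 0.00567, kept without any 1 of the 4 libraries). The single yellow control-MADM library of that age, with no cKO-Eed-MADM partner and so in no test, had 86.8 CPM of Bmi1. Cbx8 stood at 0.71 (SE 0.23, adjusted p = 0.0907) and Cbx2 at -0.68 (SE 0.25, adjusted p = 0.139) there. At E13.5, over red and yellow cells with color in the fit, Bmi1 (1.71, SE 0.29, adjusted p = 0.0270) and Cbx8 (1.6, SE 0.32, adjusted p = 0.0453) were called, 2 of 9 beside 1.90% of all genes. In those libraries Bmi1 had 122, 138, 81.3 and 71.8 CPM in cKO-Eed-MADM against 26.3 and 32.5 CPM in control-MADM, with 1 control-MADM library of each color, and both calls were lost without any 1 of 4 of the 6 libraries. Markers moved with this contrast: Sox2 (-1.62) and Hes1 (-1.66) of 8 radial glia genes and Hba-a2 (-11.3) of 5 red blood cell genes were called lower, and Neurod6 (1.08) and Dcx (0.98) of 6 cortical neuron genes higher. Red blood cell sums were 102500 CPM (red) and 3203 CPM (yellow) in control-MADM and 0.959 to 1239 CPM in cKO-Eed-MADM, and their part in the difference was not tested. At P0 none was called (0.00715% of all genes), none had an unadjusted p under 0.05 and DESeq2 called 0. Its red cKO-Eed-MADM pair disagreed, with 9.46 and 52.4 CPM of Bmi1 and 183 and 61.8 CPM of Pcgf2. Replicate 1, with 9.46 CPM of Bmi1, had fewer genes detected. Its interneuron (2010 against 240 CPM), meningeal (1035 against 55.9 CPM) and red blood cell sums (2331 against 46.9 CPM) were higher than those of replicate 2. Their part in the disagreement was not tested.

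The other genes of PRC1, 19 on the list used here, were mostly not called. At E16.5 in cKO-Eed-MADM, 1 of the 18 tested rose, Auts2, a subunit of PRC1 forms with PCGF3 or PCGF5 (937 ± 121 CPM, SD, n = 4, against 653 ± 106, n = 3; log2 fold change 0.54, adjusted p = 0.0140). Their median was -0.01 where that of all genes was 0. At P0 in the same contrast Kdm2b, which targets PRC1 to CpG islands, fell by 0.80 (adjusted p = 0.00154) and Pcgf5 rose by 0.86 (adjusted p = 0.0307), 2 of 19 (24.2% of all genes), with a median of -0.06. Against Eed-MADM, Auts2 was called higher at E16.5 (0.53, adjusted p = 0.00638), beside 7.04% of all genes called. Against Eed-MADM at P0, Kdm2b (-0.76), Auts2 (-0.56) and Pcgf3 (-0.66) were called lower, 3 of 19. Of all genes 19.5% were called there, 8.26% of them lower than in Eed-MADM as a share of all tested. The effect on Auts2 changed from E16.5 to P0 by -0.83 (SE 0.22, adjusted p = 0.0419), the 1 call of this list among the tests between ages.

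Of 12 PRC2 genes, Eed was the only one called at E16.5 in cKO-Eed-MADM. At P0 4 of the 12 fell, the deleted Eed among them, and 1 rose, beside 10.0% of all genes lower and 14.2% higher, with a median of -0.46. Ezh2, the methyltransferase, fell from 214 ± 20.2 CPM (n = 5) to 115 ± 11.1 CPM (SD, n = 4; -0.89, adjusted p = 0.000139), the histone binder Rbbp4 by 0.51 (adjusted p = 0.000844), and Epop, which joins PRC2 to elongin, rose by 0.62 (adjusted p = 0.0150). Among 5 genes of the removal of H2A ubiquitin, Asxl3 alone was called at P0, where it fell by 1.13 (adjusted p = 0.00330), beside 10.0% of all genes lower. Of the 3 HP1 chromobox genes, whose proteins bind H3K9 methylation and are no part of PRC1, Cbx1 (-0.64, adjusted p = 0.0218) and Cbx3 (-0.62, adjusted p = 0.0468) fell at P0, 2 of 3 beside the same 10.0% of all genes. With age in control-MADM, Yaf2, which joins the forms of PRC1 without a chromobox protein, rose by 1.08 from E13.5 to P0 (adjusted p = 0.00436), from 49.6 ± 9.64 CPM (n = 2) to 105 ± 18.6 CPM (SD, n = 5), while Ezh2 (-0.88), Rbbp4 (-0.92) and Eed (-1.14) fell. All lists were chosen with earlier results of these data known.

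Markers of other cell types moved with these groups. At E16.5 all 5 interneuron genes were called higher in cKO-Eed-MADM, with sums of 9.66 to 34.3 CPM in control-MADM and 247 to 494 CPM in cKO-Eed-MADM. Intermediate progenitor genes (2 of 3 lower) went from 471 to 576 CPM down to 113 to 176 CPM, cortical neuron genes (2 of 6 lower) from 7635 to 9000 CPM to 5478 to 6969 CPM, and radial glia genes (2 of 8 higher) from 741 to 963 CPM to 912 to 1838 CPM. Microglia genes (2 of the 4 tested called higher) stayed under 52.3 CPM there. Eed-MADM sums at E16.5 were 15.2 to 56.7 CPM for interneurons and 281 to 529 CPM for intermediate progenitors.

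At P0 the microglia sum was 5.61 to 24.9 CPM in control-MADM and 113 to 284 CPM in cKO-Eed-MADM, and the meningeal sum 8.29 to 14.6 CPM and 86.8 to 223 CPM, with all 4 tested genes of each list called higher. Among 8 radial glia genes 3 were called higher, Vim (1.51), Hes1 (1.40) and Slc1a3 (1.07), with sums of 2630 to 6844 CPM in control-MADM and 3396 to 6983 CPM in cKO-Eed-MADM. Cortical neuron genes (4 of 6 lower) went from 3487 to 6598 CPM to 1358 to 3113 CPM, intermediate progenitor genes (3 of 3 lower) from 201 to 346 CPM to 53.6 to 95.3 CPM, and interneuron genes (4 of 5 lower) from 348 to 868 CPM to 139 to 222 CPM. None of the radial glia, intermediate progenitor or cortical neuron genes was at 0 throughout a group, while of the endothelial genes 3 of 5 were at 0 in control-MADM at E13.5 and E16.5. The part of these markers in the differences of Bmi1, Cbx8, Cbx2, Pcgf2 and Phc1 was not tested.

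**Figure D5:**
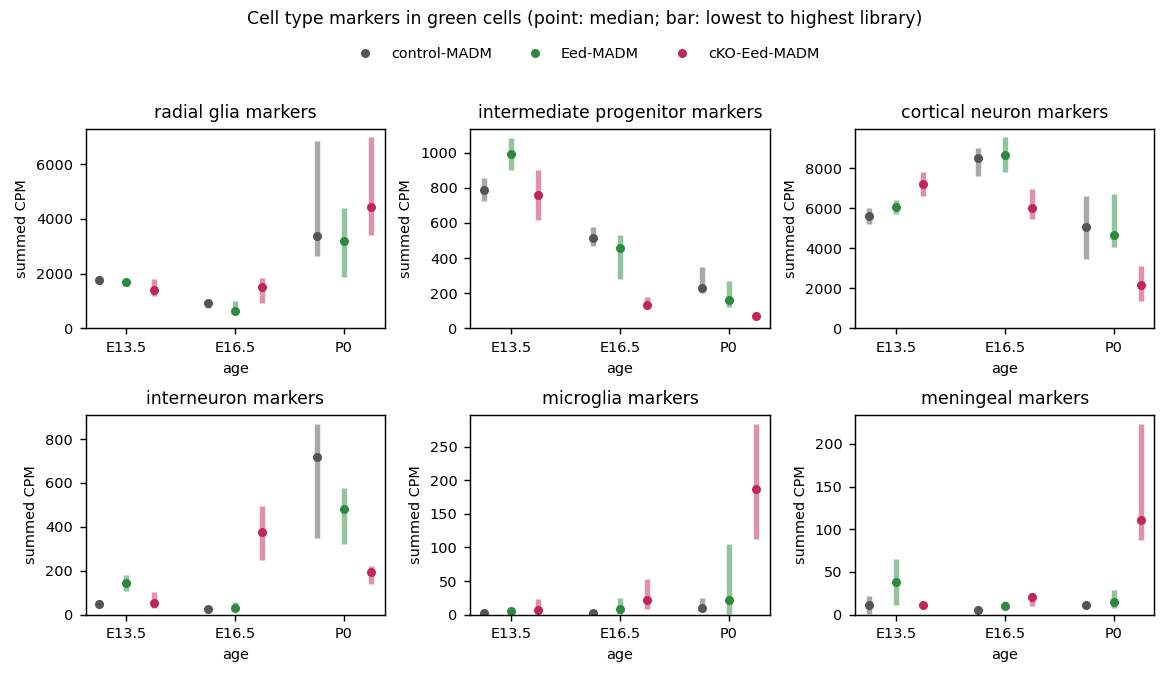
Summed CPM of 6 marker lists in green cells from E13.5 to P0, with the median library as a point and the range from lowest to highest library as a bar. At E16.5 the interneuron sum of cKO-Eed-MADM (247 to 494 CPM) lies above that of control-MADM, and at P0 so do the microglia and meningeal sums.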

How the data were processed

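Sorted green, red and yellow cells of 116 pooled cortex samples were sequenced as bulk Smart-Seq2 libraries. The authors aligned reads with STAR (mm10, GRCm38; no source used here gives the annotation release) and deposited its whole-number read counts per gene, uniquely aligned reads only; column 2, which ignores strand, was used here, as Smart-Seq2 does not mark strand, and the 2 stranded columns were not. Reads on no gene or on several genes (13.4 to 40.1% in used green libraries) stayed out of totals. Libraries under 1000000 unique reads or under 60% unique were left out (13 of 68 green; 37 of 48 red or yellow libraries were kept).

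Tests used edgeR 4.0.16 (R 4.3.3; quasi-likelihood, robust, TMM) with genes of a mean count over 1 at E12.5 and over 10 later, Benjamini-Hochberg adjustment over all genes tested and a threshold of 0.05. Each age had its own fit of 3 paradigms; ages of control-MADM, changes of effect between ages, and red and yellow cells had others. Printed CPM come from 1 TMM scaling of all kept libraries, so they differ slightly from the scaling inside a fit. Exon lengths and overlaps come from GENCODE M21, starts from RefSeq (GRCm38.p6). Alternatives were DESeq2 1.42.0, its size factors, no count filter, all libraries, only 2 paradigms, a replicate block and leaving out each library. Steps were tested on simulated data. Replicate numbers did not pair libraries (median correlation of same-numbered deviations -0.053, -0.077, -0.001 and 0.09 from E12.5 to P0).

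All 9 genes are named; genes of other lists are named where called, at most 4 per list and contrast, and Eed always; for each of the 9 called between genotypes, the 2 genes most alike over 12 group means. The 9 genes and all lists were chosen with earlier results of these data known. Some genes that these rules would name are not reported here. Counting error shrinks with depth, and E12.5 libraries were the shallowest.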

Additional observations from a re-analysis of the deposited data

Results flagged for a closer look

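Over 81 combinations of gene and green group of 4 to 10 libraries, 4 had 1 library standing apart from the rest of its group (Dixon's test at 95%), about what chance gives at 1 in 20 groups. Cbx8 at E12.5 in Eed-MADM had 50.0 CPM in replicate 6 and 9.98 to 22.4 CPM in the others. Bmi1 at P0 in Eed-MADM had 102.7 CPM in replicate 9 and 48.4 to 75.6 CPM in the others. Rnf2 at P0 in control-MADM had 48.2 CPM in replicate 5 and 87.4 to 101 CPM in the others; this library also held the lowest control-MADM values of Cbx2, Cbx8, Bmi1, Pcgf2 and Phc1 at P0. Phc1 at E16.5 in Eed-MADM had 117.9 CPM in replicate 1 and 159 to 172 CPM in the others.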

How the results depend on the processing

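Over 14 called pairs of gene and contrast, 146 alternative values kept their direction; 105 stayed called and 41 were lost, and no value reversed. DESeq2 called 1 gene (Bmi1) for cKO-Eed-MADM against control-MADM at E13.5, 2 (Bmi1, Cbx8) against Eed-MADM at E16.5, 1 (Bmi1) for Eed-MADM at P0 and 1 (Cbx2) for control-MADM from E16.5 to P0, where the main test called 0. With no count filter 1 was called at E13.5 (Bmi1) and 1 from E16.5 to P0 (Cbx2), and Cbx2 in cKO-Eed-MADM at E16.5 was lost (adjusted p = 0.0529). With DESeq2's size factors in edgeR, Phc1 against Eed-MADM at P0 was lost (adjusted p = 0.0513). With all green libraries 1 gene, Cbx6, was called at E13.5 in Eed-MADM (-2.35, adjusted p = 0.0345) and 1 in cKO-Eed-MADM (-2.65, adjusted p = 0.0467). With only 2 paradigms in the fit 1 was called at P0 in cKO-Eed-MADM against control-MADM (Phc1 was lost), and with all red and yellow libraries 0 at E13.5. The cause of these changes was not tested.

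Leaving out 1 library at a time gave 1 to 3 calls at E16.5 and 1 to 3 at P0 for cKO-Eed-MADM against control-MADM, 0 to 1 and 1 to 2 against Eed-MADM, 0 to 2 from E13.5 to E16.5, 0 to 1 from E16.5 to P0 and 1 to 2 from E13.5 to P0 in control-MADM, and in red and yellow cells 0 to 3 at E13.5 and 1 to 2 at E16.5. Fewer libraries are fitted there. From E13.5 to E16.5, 0 were called without E13.5 replicate 1 or any 1 E16.5 library, and 2 (Cbx2, Cbx7) without E13.5 replicate 3. The replicate block called 2 genes in cKO-Eed-MADM against control-MADM at E16.5 (Bmi1, Cbx8), 2 at P0, 3 against Eed-MADM at P0 and 0 elsewhere; only Cbx2 at E16.5 lost its call. The samples share only a number, so this pairing is no part of the design. Leaving out both E12.5 Eed-MADM libraries whose Eed level lay in the control-MADM range, chosen after seeing the data, left 0 calls in both contrasts with Eed-MADM. No scaling moved the median of all genes by over 0.1. Depth limits Cbx7, with 0 to 124 reads a green library from E13.5 on.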

Other observations

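The red cells of Eed-MADM, labelled Eed+/+, had median log2 ratios of Bmi1 to Pcgf2 of -1.77 (n = 2) at E13.5, -1.54 (n = 1) at E16.5 and -1.64 (n = 2) at P0, where green cells of Eed-MADM had -1.19 (n = 2), -0.17 (n = 5) and -0.56 (n = 9). These red values lie in the range of, or under, those of control-MADM green cells at E16.5 and P0. Yellow Eed+/- cells of Eed-MADM had -0.82 (n = 2) at E13.5 and -2.03 (n = 2) at P0. Red control-MADM cells had -2.07 (n = 1) at E13.5, -0.95 (n = 2) at E16.5 and -1.53 (n = 2) at P0. Red cells carry maternal and green cells paternal copies of chromosome 7, so within Eed-MADM alone Eed genotype and parental origin cannot be told apart. In control-MADM the same colors differ in parental origin but are both Eed+/+. Green control-MADM medians were -2.16 (n = 2) at E13.5, -1.25 (n = 3) at E16.5 and -1.20 (n = 5) at P0. The labels do not say whether the libraries share cortices. The difference between the colors was not tested.

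Over the 12 group means of green cells, the genes most alike to those of the 9 called between genotypes (Pearson's r of log2(CPM + 1), of 12023 genes with a mean of at least 5 CPM, given as a description) were Lbx1 (0.926) and Apbb2 (0.910) for Bmi1, Phf5a (0.973) and Nup50 (0.972) for Cbx2, Grik3 (0.961) and Capn5 (0.951) for Cbx8, Tnrc18 (0.928) and Ctnnb1 (0.925) for Pcgf2, and Id2 (0.980) for Phc1. The group means share libraries, ages and depth.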
